A study of Homo sapiens with 8 samples.

Results

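MYC (ENSG00000136997) and the stretch of chromosome 8 around it were followed through H3K4me3 ChIP sequencing and FAIRE sequencing of HCT8 cells treated with bacterial membrane vesicles (MVs). The members were all peaks within 1000 bp of an annotated MYC start site and all peaks centred on chromosome 8 between 127700000 and 129300000 (hg19), which are 331 of the 324674 peaks in the 6 deposited lists. Joined across treatments where they share at least 1 bp, they formed 57 of 39356 H3K4me3 regions and 172 of 167189 FAIRE regions. HCT8 is a human ileocecal colorectal adenocarcinoma line. Cells were kept for 5 h with MVs of the laboratory strain E. coli MC1061, with MVs of the pathogenic V. cholerae strain C6706, or with buffer alone (mock). Each treatment has 1 library per assay, so no value has a replicate, no difference was tested, and every interval is an exact 95% interval for counting error only. Libraries held 3463875 (mock), 10528314 (E. coli MVs) and 13011839 (V. cholerae MVs) tags for H3K4me3 and 14474665, 7888670 and 12077180 tags for FAIRE. In the same order, 38.6%, 53.9% and 56.1% of H3K4me3 tags and 7.1%, 37.3% and 13.9% of FAIRE tags lay in called peaks, so the FAIRE library of E. coli MVs stood apart from the other two. Of 9 markers of intestinal epithelium, 8, 9 and 8 had an H3K4me3 peak at a start site in the mock, E. coli MV and V. cholerae MV libraries. Of 5 blood cell markers 1 had one in each library, and of 3 fibroblast and endothelial markers 0, 1 and 1 did. In the same order, 12141, 12908 and 13097 of 20090 protein-coding genes had one.

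MYC encodes a basic helix-loop-helix transcription factor that binds E boxes as a dimer with MAX and promotes growth, ribosome production and proliferation. In colorectal cancer cells it is a classic target of Wnt signalling through beta-catenin and TCF/LEF factors, and much of its control lies in distant enhancers spread over the gene-poor neighbourhood, among long non-coding RNA genes such as CCAT1, CASC8, CCAT2 and PVT1. H3K4me3 marks nucleosomes at active start sites. FAIRE recovers DNA that is not held by nucleosomes and so reports open promoters and enhancers.

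All values below are normalized tag counts, the tags of a peak per 10000000 tags of its library, and ratios are log2 values of these. At MYC a single H3K4me3 peak was called in each library. It held 745 in mock (258 tags) and, after treatment, 1147 for E. coli MVs (1208 tags) and 1245 for V. cholerae MVs (1620 tags). Both MV libraries were above mock, and they lay close to each other. The log2 ratio to mock was 0.62 (0.43 to 0.82) for E. coli MVs and 0.74 (0.55 to 0.94) for V. cholerae MVs, and that of V. cholerae MVs to E. coli MVs was 0.12 (0.01 to 0.23).

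Most genes with a peak were also above mock. The median over genes with a peak in both libraries was 0.52 for 12087 genes after E. coli MVs and 0.63 for 12095 genes after V. cholerae MVs. With a threshold of 1.5-fold, MYC was among the higher genes in both comparisons, as were 42.6% and 53.4% of all such genes. Ratios shrank with rising level, so MYC was also set beside the genes nearest to it in mean level, up to 500 on either side. Those genes had medians of 0.26 and 0.24, and 9.9% and 14.7% of them had a higher ratio than MYC. Between the MV libraries the value of MYC was near the median of all genes, 0.11. Scaled to the tags in called peaks, the ratios of MYC to mock came to 0.14 and 0.20.

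The peak at MYC was called longer in the MV libraries, and its mean density over the called length was not higher. Each density was taken over that library's own called length, so a difference over the shared part of the peak was not measured. The MYC reference transcript starts at chr8:128748477 and holds 3 exons on the plus strand, at 128748477 to 128748869, 128750494 to 128751265 and 128752642 to 128755197. In mock-treated cells the H3K4me3 peak ran from 128746348 to 128751030, a width of 4682 bp that ended inside exon 2. With E. coli MVs it ran from 128746266 to 128754037 (7771 bp), and with V. cholerae MVs from 128745723 to 128754473 (8750 bp), in both cases ending inside exon 3. The peak covered 38.0%, 82.7% and 89.2% of the transcribed length, and 0%, 54.6% and 71.7% of exon 3. The upstream edge differed far less, at -2.1, -2.2 and -2.8 kb from the start.

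**Figure D1:**
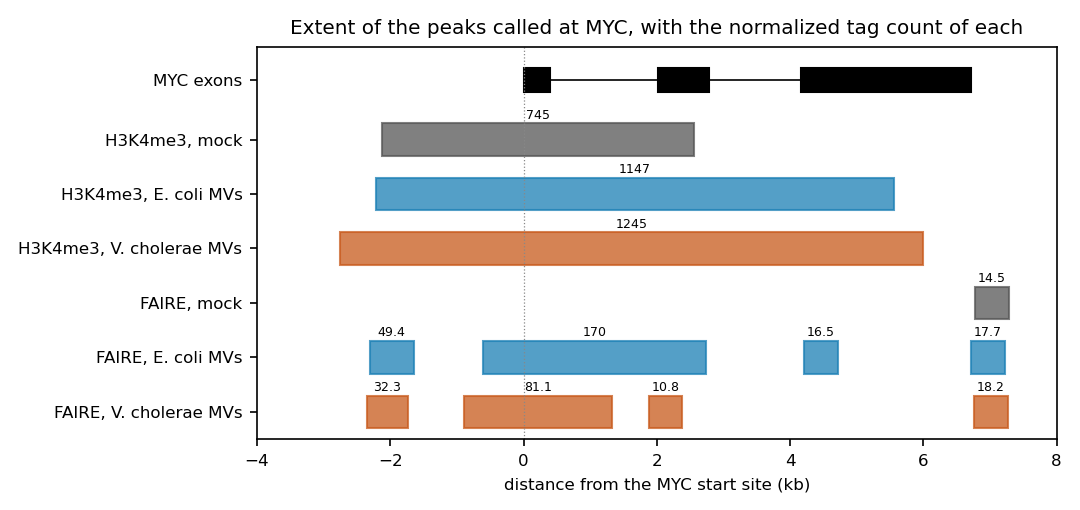
Extent of every peak called between -4 and 8 kb of the MYC start site (x axis, kb), 1 row per library, with the normalized tag count printed above each bar and the exons of the reference transcript on top. The H3K4me3 bar ends at 2.6 kb in mock-treated cells and at 5.6 and 6.0 kb with E. coli and V. cholerae MVs, and FAIRE bars at the start site are present only in the MV libraries.

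The called H3K4me3 peak at MYC was 1.66-fold wider after E. coli MVs and 1.87-fold wider after V. cholerae MVs than in mock, where the median gene was 1.19-fold wider in both comparisons. Widening of at least 1.5-fold was seen in 19.7% and 21.9% of all genes with a peak in both libraries. Of genes with a peak, 6.04% had a wider peak than MYC in mock, and after E. coli or V. cholerae MVs 2.05% and 1.34% did. Per 1000 bp of called peak, MYC held 159, 148 and 142, a log2 ratio to mock of -0.11 and -0.16, while the median gene was at 0.24 and 0.33. On that scale 29.3%, 50.9% and 61.0% of genes had a denser mark than MYC. The mock library was the shallowest of the 3, and a shallow library can lose the edges of a peak. The part of depth in the width was not tested.

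**Figure D2:**
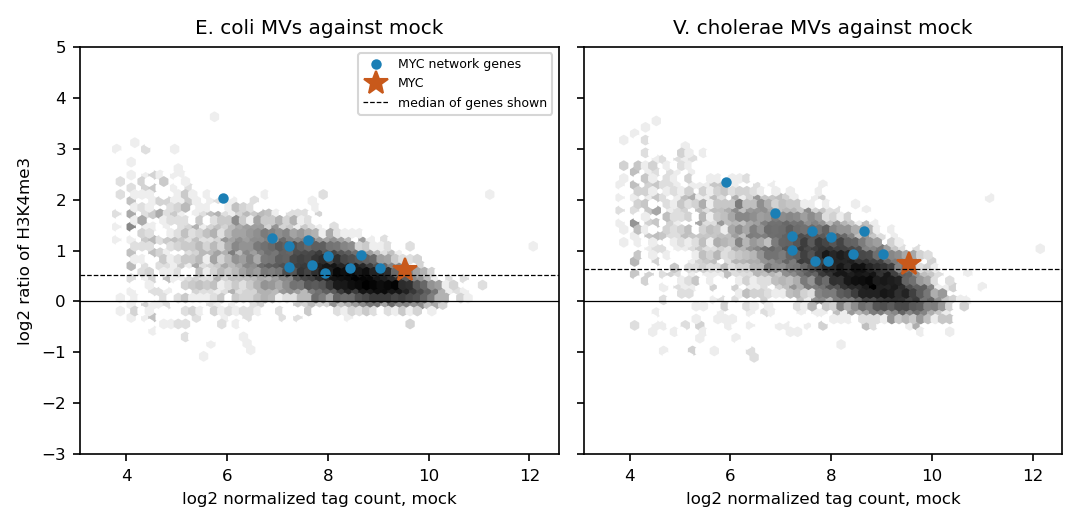
Log2 ratio of H3K4me3 to mock (y axis) against the log2 normalized tag count in mock (x axis) for 12070 genes with a peak in all 3 libraries, shaded by the number of genes, with MYC as a star and 11 genes of the MYC network as points. MYC lies at 0.62 and 0.74, in the upper part of the cloud at its own level, where 9.9% and 14.7% of genes were higher, and dashed lines mark the medians.

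By the distance between their log2 levels in the 3 libraries, the protein-coding genes most like MYC among 12069 others were BAZ2A, NDUFAF6, FBXL12, TRABD2A and SGMS1. BAZ2A, a subunit of a nucleolar remodelling complex, held 730.4, 1149 and 1264 and was the closest at a distance of 0.036. Its called widths were 5418, 7683 and 8131 bp. NDUFAF6, a mitochondrial assembly factor that also lies on chromosome 8, held 762, 1171 and 1264 over 6771, 9027 and 8718 bp. SGMS1, a sphingomyelin synthase, reached like levels (759, 1151 and 1294) over called widths of 7503, 7469 and 6992 bp. The rule used the summed level only, and the called widths of these genes varied.

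FAIRE at MYC differed in another way: no peak was called within 1000 bp of a MYC start site in mock-treated cells, while both MV libraries had them. With E. coli MVs the peaks there summed to 219 (173 tags), and those of the V. cholerae MV library to 124 (150 tags). The larger one spanned the start itself. It held 169.9 from -0.6 to 2.7 kb with E. coli MVs and 81.1 from -0.9 to 1.3 kb with V. cholerae MVs, where a further peak of 10.8 lay over exon 2. The other, centred at -2.0 kb in the promoter shared with the antisense long non-coding RNA gene CASC11, held 49.4 and 32.3. CASC11 therefore had the same H3K4me3 peak as MYC in every library, and the sources used here cannot divide it between the genes.

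FAIRE at MYC in the V. cholerae MV library, set against the E. coli MV library, gave a log2 ratio of -0.82 (-1.15 to -0.50), a smaller deficit than the median of -1.59 over 12109 genes, and 13.8% of genes had a higher ratio. The direction depended on the scale. It turned to 0.60 with the tags in called peaks as the base and to 0.34 with the median of regions shared by the 3 libraries at 0. A ratio to mock cannot be given. Peaks had to reach 4-fold over input, and input was high at the MYC start, so over the stretch from 128747581 to 128751210 a library could hold up to 125 without a call. That is below the interval of E. coli MVs there (142 to 201) and above the value of V. cholerae MVs (91.9, with an interval of 75.6 to 111). At -2.0 kb the same limit was 21.3, below both MV values. The nearest mock FAIRE peak downstream of the start, just past the 3′ end of MYC at 7.0 kb, held 14.5, where E. coli MVs had 17.7 and V. cholerae MVs 18.2.

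PVT1 (ENSG00000249859), a long non-coding RNA gene whose promoter is known to compete with that of MYC for shared enhancers, begins downstream of it on the same strand. The H3K4me3 peak at its reference start (chr8:128806787) held 398 in mock (138 tags), and the libraries of E. coli and V. cholerae MVs held 497 (523 tags) and 529 (688 tags). Its width was 2527, 2621 and 3000 bp. The order of the libraries was that of MYC, without a difference in width of like size. Per 1000 bp it held 158, 189.5 and 176, so in mock-treated cells the marks at PVT1 and MYC were about equally dense, and with either MV preparation that at PVT1 was the denser. Summed over the peaks no farther than 1000 bp from one of 132 annotated starts, PVT1 had log2 ratios to mock of 0.31 (0.05 to 0.58) and 0.49 (0.24 to 0.76), both below the median gene. Scaled to the tags in called peaks they came to -0.17 and -0.05. A FAIRE peak over the PVT1 reference start was called only with E. coli MVs, at 72.3 (57 tags). Up to 52.4 could have gone uncalled there in the other libraries.

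Across the whole stretch, H3K4me3 was concentrated at these starts. MYC held 40.8%, 50.9% and 56.3% of the summed normalized tag count of the 1.6 Mb in mock, E. coli MV and V. cholerae MV libraries, and the PVT1 start held 21.8%, 22.0% and 23.9%. The numbers of peaks were 22, 36 and 30, or 13.8, 22.5 and 18.8 per Mb against 7.8, 10.4 and 9.7 over the genome. Input tags per kb of these peaks were close to the genome value in each library, at 5.23 against 4.84, 3.93 against 4.41 and 3.74 against 4.32. Of the 57 regions, 11 overlapped an exon, 39 lay only in introns and 7 lay outside annotated genes.

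**Figure D3:**
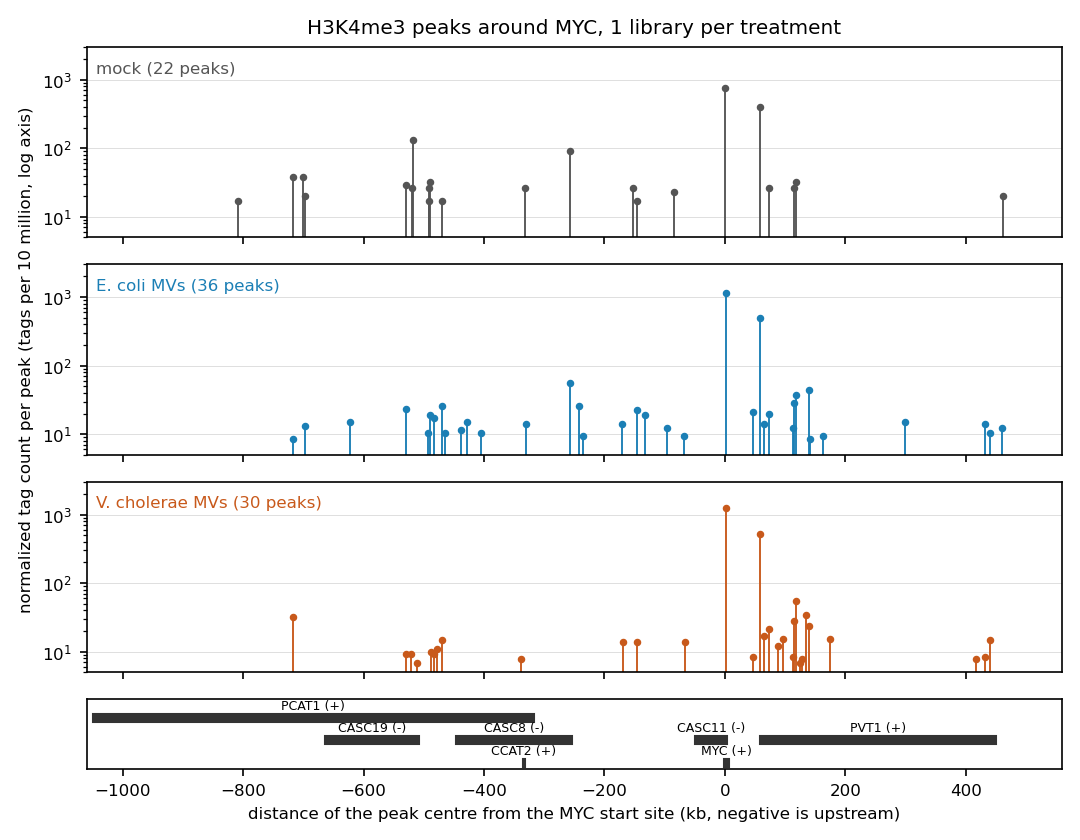
H3K4me3 peaks of the 3 libraries by distance of their centre from the MYC start site (x axis, kb) and normalized tag count (y axis, log), with annotated genes and their strands in the lowest panel. MYC and PVT1 tower over the other peaks in each library, the upstream side of the mock panel holds peaks of 133 and 92.4, and peaks inside PVT1 are more numerous with MVs.

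Upstream of MYC the H3K4me3 regions did not share 1 direction by summed level. Peaks more than 20 kb upstream summed to 577 over 16 peaks in mock, while the E. coli MV library gave 362 over 21 peaks and the V. cholerae MV library 151 over 12 peaks. They made up 31.7%, 16.1% and 6.85% of the signal in the 1.6 Mb. Inside PVT1 the sums were 482 over 4 peaks, 711 over 12 peaks and 805 over 16 peaks. These peaks covered 11.3, 13.9 and 7.6 kb upstream and 4.5, 11.9 and 15.9 kb in PVT1, or 51.2, 26.1 and 19.9 per kb upstream and 106, 59.9 and 50.8 per kb in PVT1. They were called separately in libraries of unlike depth, so the sums describe what was called and are no contrast of the treatments. Of the 4 upstream regions called in all 3 libraries, E. coli MVs were above mock at -469.9 and -146.5 kb (log2 ratios of 0.57 and 0.40) and below it at -717.5 and -529.5 kb, and V. cholerae MVs were below mock at all 4. The counting interval lay wholly below 0 only at -717.5 kb for E. coli MVs and at -529.5 kb for V. cholerae MVs, and at no site wholly above it. The E. coli MV peaks at -469.9 and -146.5 kb were called over 772 and 896 bp, against 500 bp in mock at each. Per 1000 bp their log2 ratios to mock were -0.06 and -0.44. On that scale all 4 regions were below mock with either MV preparation.

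The strongest upstream mark was at a cluster of start sites of CASC19 at -517.9 kb (chr8:128229855-128231375), on the minus strand. CCAT1, a colorectal cancer long non-coding RNA of the same neighbourhood, has no entry of its own in the annotation used. These starts are therefore named by CASC19 alone, and whether the mark lies at a CCAT1 start cannot be told here. The mock library held 133 there (46 tags, with an interval of 97.2 to 177), and neither MV library had a peak. Over this stretch, which has 14 input tags, a peak would have been called above 64.1, so both MV libraries were below the lower bound of mock. FAIRE at the same place ran the other way, with no mock peak, 31.7 after E. coli MVs and 29.0 after V. cholerae MVs, where up to 18.0 could have gone uncalled in mock.

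The next was inside CASC8, a long non-coding RNA gene on the minus strand, at -257.4 kb (chr8:128490260-128491811, overlapping an exon). It held 92.4 in mock-treated cells (interval 63.2 to 130.4), 55.1 with E. coli MVs and had no peak with V. cholerae MVs, where less than 54.9 went uncalled. The log2 ratio of E. coli MVs to mock was -0.75 (-1.39 to -0.08). At -529.5 kb, at another CASC19 start, all 3 libraries had a peak, of 28.9, 23.7 and 9.22. At -717.5 kb, in an intron of PCAT1, the values were 37.5, 8.55 and 32.3 over called widths of 1358, 500 and 1537 bp, which is 27.6, 17.1 and 21.0 per 1000 bp.

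Over regions called in both libraries, the median log2 ratio of H3K4me3 was -0.33 for 14 regions with E. coli MVs against mock, -0.22 for 9 regions with V. cholerae MVs against mock and -0.04 for 17 regions between the MVs. The medians over the genome were 0.40, 0.44 and 0.06, and over regions of like summed level 0.45, 0.51 and 0.00. That match was loose, as it kept 12912 of 19218, 15842 of 18365 and 13199 of 23335 regions. A weak region also needed a higher value to be called in mock, where the lowest called value was 11.5 against 7.6 and 6.92. The medians are not adjusted for this. At least 1.5-fold lower were 6 of 14, 1 of 9 and 7 of 17 regions, against 10.1%, 15.4% and 13.9% over the genome. Intervals of these medians, from ranked values, were wide (-0.75 to 0.40, -0.32 to 0.74 and -0.81 to 0.12), and all included 0. Most of these regions are weak. Regions joined only where peaks share at least 50% of the shorter peak gave 0.13 in place of -0.33.

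Of the 57 H3K4me3 regions, 9 were called in all 3 libraries (15.8%, against 45% over the genome). They were MYC, the PVT1 start, 3 further sites in PVT1 at 73.9, 115.4 and 118.5 kb, and 4 upstream sites at -717.5, -529.5, -469.9 and -146.5 kb. The peak at 118.5 kb lies at an internal PVT1 start and held 31.8, 38.0 and 54.6 over called widths of 679, 1466 and 2147 bp. Its log2 ratios to mock were 0.26 (-0.73 to 1.37) and 0.78 (-0.14 to 1.85). Per 1000 bp it held 46.8, 25.9 and 25.4. Mock alone had 8 regions (14.0%, against 6.79% over the genome), all of them upstream, of which 7 held 17.3 to 37.5 and the other was the CASC19 start. A further 5 were shared by mock and E. coli MVs (8.77%, against 3.88% over the genome), and none by mock and V. cholerae MVs (1.71% over the genome). E. coli MVs alone had 14 regions of 8.55 to 25.6 (24.6%, against 15.8% over the genome) and V. cholerae MVs alone 13 regions of 6.92 to 34.6 (22.8%, against 12.5% over the genome).

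The lowest called value anywhere was 11.5 in mock and 7.60 and 6.92 with the MVs, so weak regions called only with MVs give no contrast with mock. Of the 8 regions called with both MVs and not in mock (14.0%, against 14.3% over the genome), 1 exceeded by its E. coli MV interval what mock could hold uncalled. This was an intronic PVT1 site at 140.3 kb with 43.7 and 23.8, where mock could hold up to 22.9. In the other direction, 8 regions called in mock had no E. coli MV peak, and in 2 of them the E. coli MV limit lay below the mock interval. Without a V. cholerae MV peak were 13 regions called in mock, and in 5 of them the V. cholerae MV limit lay below the mock interval. Such counts over the genome are not given here.

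FAIRE peaks in the 1.6 Mb numbered 60 in mock, 76 in the E. coli MV library and 107 in the V. cholerae MV library, which is 37.5, 47.5 and 66.9 per Mb against 21.9, 31.0 and 26.2 over the genome. They were weaker and more evenly spread than the H3K4me3 peaks, and the mock peaks were weakest, from 7.60 to 20 with a median of 8.98. The median peak held 17.7 after E. coli MVs and 12.4 after V. cholerae MVs, and the highest held 169.9 and 88.6. Their sum was 613, 2106 and 1750 over 33.4, 54.7 and 69.0 kb of separately called peaks. Input tags per kb of FAIRE peaks were 8.72, 15.28 and 11.93 against 8.36, 12.85 and 11.16 over the genome.

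**Figure D4:**
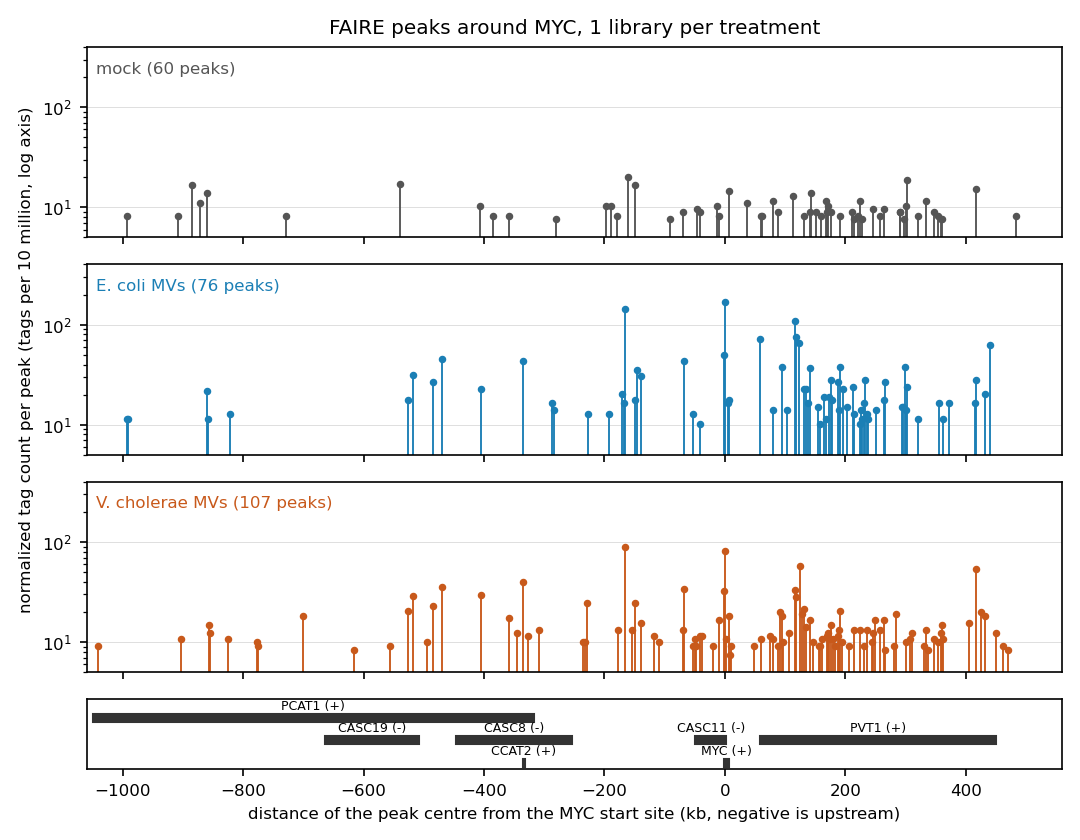
FAIRE peaks of the 3 libraries by distance of their centre from the MYC start site (x axis, kb) and normalized tag count (y axis, log), with annotated genes below. No mock peak exceeds 20, while both MV panels show tall peaks near -165.8 kb, at MYC and around 120 kb inside PVT1.

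Upstream of MYC by more than 20 kb, FAIRE peaks summed to 219 over 20 peaks in mock, and to 641 over 24 peaks and 685 over 39 peaks in the E. coli and V. cholerae MV libraries. Inside PVT1 the sums were 341 over 35 peaks, 1211 over 48 peaks and 863 over 58 peaks. The covered lengths were 11.8, 13.9 and 23 kb upstream and 19.0, 35.8 and 38.7 kb in PVT1, or 18.6, 46.3 and 29.7 per kb and 18.0, 33.8 and 22.3 per kb. These are again sums over separately called peaks, and their order between the libraries depends on the scaling. The 100 kb with the largest sum ran from 100 to 200 kb downstream, at 109.8, 584 and 367.

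The strongest distal site lay outside annotated genes at -165.8 kb (chr8:128582095-128583330). Mock had no peak, E. coli MVs held 143 (113 tags, interval 118 to 172) and V. cholerae MVs held 88.6 (107 tags, interval 72.6 to 107). At most 45.9 could have gone uncalled in mock, below both intervals. After the MYC start, it was the FAIRE site with the highest summed value. No H3K4me3 peak overlapped it, and 1 weak H3K4me3 region called with both MVs (14.2 and 13.8) lay beside it at -169.9 kb.

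Next in order were sites inside PVT1. At 116.1 kb (chr8:128863558-128865668, over an exon and near an internal start) E. coli MVs held 108 and V. cholerae MVs 33.1, a log2 ratio between them of -1.70 (-2.28 to -1.14), the lowest of the shared regions. The called widths were 2110 and 754 bp, and per 1000 bp the values were 51.2 and 43.9, a log2 ratio of -0.22. At 124.2 kb (chr8:128871733-128873673) the values were 65.9 and 58.0. At 416.7 kb (chr8:129163868-129166470), near the 3′ end of PVT1, all 3 libraries had a peak, and the values were 15.2, 44.4 and 53.8. This last site had the highest log2 ratio of V. cholerae MVs to mock, 1.82 (1.11 to 2.59), over called widths of 924 bp in mock and 2602 bp after V. cholerae MVs. Per 1000 bp that ratio was 0.33. Between the MV libraries the log2 ratio there was 0.28 (-0.34 to 0.91), and -0.68 per 1000 bp.

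**Figure D5:**
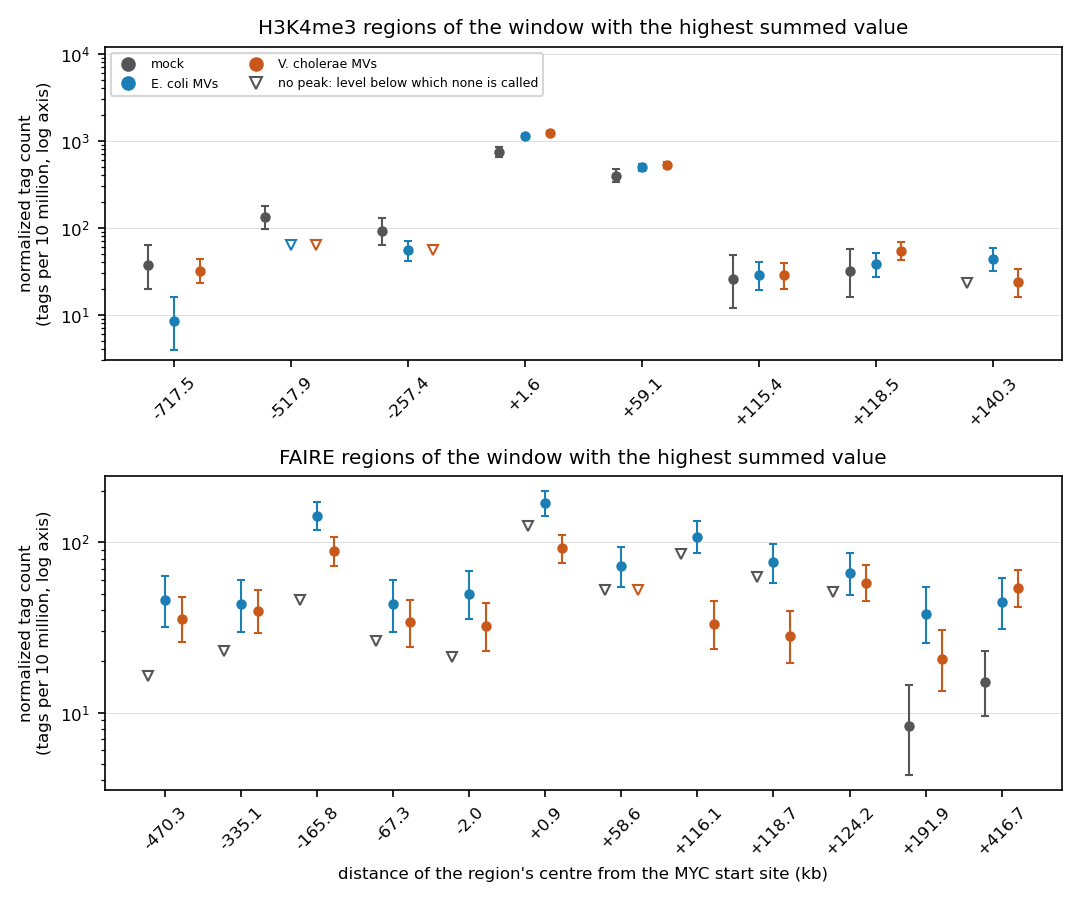
Normalized tag count (y axis, log) of the 8 H3K4me3 and 12 FAIRE regions with the highest summed values, by distance from MYC (x axis, kb). Points carry exact 95% counting intervals, and open triangles mark the level below which a library without a peak could lie. Mock triangles at -165.8 and -470.3 kb sit below both MV intervals, and at 0.9 kb the triangle (125) lies between the E. coli MV and V. cholerae MV values.

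Upstream, other sites were called with both MVs and not in mock. The sites at -470.3 and -67.3 kb are given as examples chosen after their values were seen. The same holds for the sites given further on at 440.6 kb (E. coli MVs alone) and -160.7 kb (mock alone). CCAT2, a long non-coding RNA transcribed from an enhancer region upstream of MYC, held 43.1 after E. coli MVs and 39.7 after V. cholerae MVs at -335.1 kb, where at most 22.9 went uncalled in mock. An intronic PCAT1 site at -470.3 kb held 45.6 and 35.6, above a limit of 16.4, and it overlapped an H3K4me3 region present in all 3 libraries (17.3, 25.6 and 14.6). A site at -67.3 kb held 43.1 and 33.9, where the limit of 26.2 lay below the E. coli MV interval and inside that of V. cholerae MVs (from 24.4). In all, 26 FAIRE regions were called with both MVs and not in mock (15.1%, against 13.4% over the genome). The limit in mock lay below the E. coli MV interval in 11 of them, below the V. cholerae MV interval in 8 and below both in 6. The same counts over the genome are not given here, so they do not set this stretch apart.

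Regions found in 1 library were weak as a rule. V. cholerae MVs alone had 54 regions of 7.45 to 24.8 (31.4%, against 19.9% over the genome), E. coli MVs alone 32 of 11.4 to 72.3 (18.6%, against 27.8% over the genome), and mock alone 29 of 7.60 to 20 (16.9%, against 20.1% over the genome). The highest of the E. coli MV regions was the PVT1 start, followed by an intronic PVT1 site at 440.6 kb with 62.1, where at most 26.2 went uncalled in the other libraries. The mock regions were led by a site at -160.7 kb with 20.

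The 12 FAIRE regions called in all 3 libraries (6.98%, against 8.61% over the genome) were a site at -149.9 kb, the one past the 3′ end of MYC and 10 inside PVT1. Over all 12 the values ran from 7.60 to 16.6 in mock, from 10.1 to 44.4 after E. coli MVs and from 8.28 to 53.8 after V. cholerae MVs. The median was 10.0 in mock, against 20.2 after E. coli MVs and 15.8 after V. cholerae MVs. The largest ratio of E. coli MVs to mock was at 191.9 kb, where the values were 8.29, 38.0 and 20.7 and the log2 ratio 2.20 (1.19 to 3.30). The called width was 500 bp in mock and 1691 bp after E. coli MVs, and per 1000 bp the log2 ratio was 0.44. The lowest was at 224.1 kb, at MIR1205, with 11.7, 10.1 and 13.2 and a log2 ratio of -0.21 (-1.63 to 1.08).

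Over regions called in both libraries the median FAIRE log2 ratio was 0.59 for 17 regions with E. coli MVs against mock, 0.47 for 26 regions with V. cholerae MVs against mock and -0.19 for 38 regions between the MVs. The genome gave 1.42, 0.43 and -0.99, and regions of like summed level gave 0.75, 0.19 and -0.86. This match was again loose, with 12046 of 24721, 9464 of 20925 and 24059 of 36859 regions kept. At least 1.5-fold higher than mock were 9 of 17 regions with E. coli MVs (76.7% over the genome) and 11 of 26 with V. cholerae MVs (43.1% over the genome), and none was that much lower. Between the MVs, 14 of 38 were at least 1.5-fold lower with V. cholerae MVs, against 66.7% over the genome. With the tags in called peaks as the base, these medians came to -1.80, -0.50 and 1.23, the opposite signs.

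Few FAIRE peaks coincided with H3K4me3 peaks of the same treatment, 1 of 60 in mock (1.67%) but 13 of 76 (17.1%) after E. coli MVs and 17 of 107 (15.9%) after V. cholerae MVs. Over the genome the shares were 8.19%, 20.6% and 21.2%.

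The letters of 3 motifs were sought on both strands of the FAIRE regions in the GRCh37 sequence. They were TGANTCA (bound by AP-1), CTTTGAT (bound by TCF/LEF, the nuclear effectors of Wnt signalling) and CACGTG (the E box bound by MYC and MAX). Among the 73 regions of over 500 and up to 1000 bp, 34.2% held the AP-1 motif, 16.4% the TCF/LEF motif and 5.48% the E box, against 22.4%, 7.77% and 14.4% of all 50943 FAIRE regions of that length. Among the 85 regions of up to 500 bp the shares were 9.41%, 2.35% and 5.88%, against 15.5%, 5.64% and 9.04%. For the 14 longer regions they were 57.1%, 21.4% and 35.7%, against 36.7%, 13.7% and 35.1%. Over all 172 regions the shares were 23.8%, 9.88% and 8.14%, against 22.4%, 8.11% and 16.6%. Of the 26 regions called with both MVs and not in mock, 15 held the AP-1 motif (57.7%), 7 the TCF/LEF motif (26.9%) and 4 the E box (15.4%). Of the 22471 such regions over the genome, 33.0%, 11% and 25.3% did. For regions of mock alone the shares were 10.3%, 3.45% and 10.3%, against 15.9%, 6.71% and 8.43% over the genome. For those called in all 3 libraries they were 41.7%, 0% and 8.33%, against 40.4%, 15.3% and 35.1%. These 3 groups were not matched for length. Their median lengths were 718, 500 and 855 bp, against 1051, 500 and 1602 bp over the genome. The regions at the MYC start, at -165.8 kb and at the PVT1 start each held 1 TCF/LEF match and no AP-1 match. Those at 116.1 and 118.7 kb inside PVT1 held 3 and 5 AP-1 matches and no TCF/LEF match. These are matches of letters and were not tested.

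Of 12 long non-coding and other genes listed for the locus, 9 had an entry, 1 of them (TMEM75) under the name LINC02912. H3K4me3 at a start site was called for 4 of the 9 in each library, namely PVT1, CASC11, CASC19 and PCAT1. FAIRE was called for 4 in mock and for 6 with either MV preparation. Of 20090 protein-coding genes, 12141, 12908 and 13097 had H3K4me3 at a start site in mock, E. coli MV and V. cholerae MV libraries. In the same order, 8387, 15620 and 12543 of them had FAIRE, so more genes had FAIRE with MVs over the genome too. CASC19, summed over its 72 annotated starts, held 162 H3K4me3 in mock against 23.7 and 16.1, while its FAIRE was 17.3 in mock against 49.4 and 58.8. Of the mock H3K4me3, 133 lay at -517.9 kb, where each MV library could hold up to 64.1 uncalled. The mock FAIRE peak lay at -539.1 kb, where neither MV library had a peak. The MV FAIRE peaks lay at other sites, so the FAIRE sums are no contrast at the same place. PCAT1 has start sites beyond the upstream border of the stretch, and its values (320.4, 471 and 601 for H3K4me3) come mostly from there. POU5F1B, a retrogene related to OCT4, had no H3K4me3 peak and 1 FAIRE peak of 11.6, with V. cholerae MVs. LINC02912 had FAIRE peaks of 8.98 in mock and 24.1 with E. coli MVs. The small RNA genes MIR1205 and RNU1-106P lie beside weak FAIRE peaks of 10.1 to 17.7, and RN7SKP226 beside a mock peak of 8.29. The unnamed gene ENSG00000287781 had 1 H3K4me3 peak of 10.8, with V. cholerae MVs.

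MAX, the dimer partner of MYC, held 346 H3K4me3 in mock and, after E. coli and V. cholerae MVs, 548 and 659, log2 ratios to mock of 0.66 (0.38 to 0.96) and 0.93 (0.65 to 1.22). Of the 12 partners and relatives of MYC that bind with MAX or MLX, 11 had a peak in all 3 libraries. All 11 exceeded mock beyond counting error after either MV preparation, as did 74.7% and 75.5% of all genes, and their medians were 0.89 and 1.27 against 0.52 and 0.63. Between the MV libraries, 8 of 12 were higher after V. cholerae MVs beyond counting error, against 37.4% of all genes. This list and those below were not matched for level, although ratios shrank with rising level. The median gene with a peak held 306 in mock. MYCL, a MYC paralogue, held 60.6, 247 and 309, the highest ratios of the list at 2.03 (1.38 to 2.74) and 2.35 (1.72 to 3.06). MXD4, which competes with MYC for MAX, held 118, 282 and 394. The lowest ratio with E. coli MVs was that of MLXIPL, a glucose-responsive factor (245, 362 and 428), and the lowest with V. cholerae MVs that of MGA, a MAX partner (205, 335 and 354). MYCN had no mock peak and held 63.6 and 84.5.

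Known MYC targets were near the share of all genes. Of 19, the E. coli MV library had 14 above mock beyond counting error, and the V. cholerae MV library 14 above and 1 below, against 74.7% and 75.5% of all genes above. Their medians were 0.37 and 0.41. PTMA, the gene of prothymosin alpha, held 699, 1430 and 1667. The cell cycle kinase gene CDK4 held 361, 698 and 756. GNL3, a nucleolar GTPase gene, held 964, 998 and 817 and was the member below mock, at -0.24 (-0.42 to -0.06) with V. cholerae MVs. NPM1, the gene of nucleophosmin, held 953, 1016 and 948. CCND2, the gene of cyclin D2, was barely marked (14.4, 12.3 and 43.1).

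Of 14 genes whose products act on the MYC promoter, on its enhancers or on MYC protein, 12 exceeded mock beyond counting error after E. coli MVs and 8 after V. cholerae MVs, where 74.7% and 75.5% of all genes did. Their medians were 0.34 and 0.39. LEF1, a Wnt effector, held 98.2, 200.4 and 241. PIM1, a kinase that stabilizes MYC, held 292, 634 and 696, and BIN1, a MYC-binding protein gene, held 335, 678 and 811. FUBP1, which binds the far upstream element of MYC, held 883, 941 and 787, the insulator factor gene CTCF 710.2, 752 and 765, and TCF7L2, the main TCF of colon cells, 1400, 1682 and 1468. FAIRE at the start sites exceeded mock beyond counting error after E. coli MVs in 11 of 11 network genes, 13 of 14 targets and 9 of 9 regulators with a peak in both libraries, and in 94.9% of all such genes. With V. cholerae MVs the counts were 11 of 11, 11 of 14 and 8 of 8, against 70.8%.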

How the data were processed

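H3K4me3 ChIP and FAIRE libraries of HCT8 cells, 1 per treatment and assay, were deposited as 6 peak lists on hg19. The 2 input libraries were not analysed here as samples. The submitters' processing notes name Bowtie 1.1.2, SAMtools 1.3.1 and HOMER 4.7.2. Per the file headers, the authors kept peaks at least 4-fold over input with a Poisson p of 0.0001. The deposited values are a normalized tag count (signal per 10000000 tags), a count of tags in the peak and in input, and a fold ratio over input. Columns of p-values were not used.

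Peaks were assigned to genes within 1000 bp of a GENCODE release 44 start site on GRCh37, and peaks of the 3 treatments sharing at least 1 bp were joined. Tags were recovered from normalized values and library totals, and ratios carry exact 95% intervals from these counts, which cover counting error only because PCR copies are not independent molecules. The limit given where no peak was called is 4-fold over the input tags or the tag threshold in that library's header, whichever is higher. Named genes were MYC, the annotated genes of the stretch, 5 genes nearest to MYC in level, and the extremes of each fixed list. Members and lists were chosen with earlier results of these data known. With 1 library per group no test was made. Scripts were tested on simulated data. Alternatives were scaling to tags in peaks, centring on shared regions, values per 1000 bp, stricter peaks and stricter joining. Python 3.11.15, numpy 2.4.6, pandas 2.3.3, scipy 1.17.1 and matplotlib 3.10.9 were used.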

Additional observations from a re-analysis of the deposited data

How the results depend on the processing

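No paired analysis was possible because there are no replicates (1 library for each treatment in each assay), and for the same reason none could be left out. Scaling decided several directions, and the cause was not tested. Per 1000 bp of peak, H3K4me3 at MYC gave -0.11 (E. coli MVs to mock), -0.16 (V. cholerae MVs to mock) and -0.05 (between the MVs), and PVT1 gave -0.04, -0.48 and -0.44, while the median of the regions with V. cholerae MVs came to -0.60. With tags in called peaks as the base, MYC gave 0.14 and 0.20 to mock and PVT1 -0.17 and -0.05. With the median of shared regions at 0, MYC gave 0.19 and 0.27 and PVT1 -0.12 and 0.02. The medians of H3K4me3 regions under tags in peaks were -0.81 and -0.76. FAIRE at MYC between the MVs turned to 0.60 (tags in peaks) and 0.34 (shared regions), and the FAIRE region medians under tags in peaks to -1.80, -0.50 and 1.23. At 8-fold over input, H3K4me3 peaks numbered 16 in mock, 21 after E. coli MVs and 19 after V. cholerae MVs, and FAIRE peaks 6, 12 and 10 in mock, E. coli MV and V. cholerae MV libraries. With 1 threshold on the normalized value for all libraries, H3K4me3 peaks numbered 22, 26 and 17, so the V. cholerae MV library went from above mock to below it. Of the alternatives, 14 moved a value, 14 reversed it and 57 stayed within the interval or within 1.5 times the count. Of these 57, 1 turned in sign, the E. coli MV to mock median of H3K4me3 regions joined at 50% overlap (0.13 in place of -0.33). FAIRE at MYC against mock gave no value under any. The shallow mock H3K4me3 library and the low share of mock FAIRE tags in peaks limit what an absent mock peak can show.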
